A study of Mus musculus with 2 samples.

Results

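The 8 genes described here encode enzymes that bring long-chain fatty acids into mitochondria and shorten them there, together with a kinase that restrains the use of glucose carbon: Cpt1a, Cpt2, Acadvl, Acadl, Acadm, Hadha, Hadhb and Pdk4. They were chosen by symbol, with earlier results of these data known, and all 8 were found among the 31053 genes of the deposited feature lists. The genes were grouped under fatty acid oxidation and ketogenesis, but none of the 8 encodes a ketogenic enzyme, and ketogenesis was read from a separate list.

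Livers of C57BL/6 mice were dissociated with collagenase and the cells separated on 90% and 25% Percoll, so that hepatocytes of different density and non-parenchymal cells were loaded together. One group had eaten chow and the other a NASH diet, high in fructose, fat and cholesterol, for 6.5 weeks. NASH stands for non-alcoholic steatohepatitis, a fatty liver with inflammation. Each diet was represented by 1 library of the 10x Genomics 3' kit, in which a unique molecular identifier (UMI) marks each captured RNA molecule. The sources used here give neither the age nor the sex nor the number of the mice. With 1 library per diet no difference between diets could be tested, and every interval below is an exact 95% interval for counting error only.

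Mitochondrial beta-oxidation starts when CPT1 joins a long-chain acyl group to carnitine at the outer membrane. CPT2 returns it to coenzyme A inside the mitochondrion. The acyl chain is then oxidised by acyl-CoA dehydrogenases that differ in the chain length they accept, and the trifunctional protein carries out the later steps for long chains. In liver the acetyl-CoA that results feeds ketone body synthesis, above all during fasting, and the nuclear receptor PPARA drives transcription of much of the pathway.

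The chow library held 71635757 UMIs over 7359 barcodes and the NASH diet library 39440182 UMIs over 5881 barcodes. After filtering, 2095 chow and 1144 NASH diet barcodes were hepatocyte-like, with medians of 23490 and 19737.5 UMIs. All 10 hepatocyte markers were detected in both libraries. Mitochondrially encoded RNA made up 17.998% of the UMIs of chow hepatocyte-like cells and 21.3% of those on the NASH diet. The 12 endothelial markers summed to 4.19 and 7.58 counts per 1000000 UMIs (CPM) in hepatocyte-like cells, against 17868 and 14530 in endothelial-like cells. Another 1745 chow and 973 NASH diet barcodes held hepatocyte RNA at low depth and were kept apart as low-UMI droplets. The libraries shared 69 barcode sequences.

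In hepatocyte-like cells all 8 genes had a higher level in the NASH diet library than in the chow library. The class compared was made of different clusters in each library, so that diet, library and cluster cannot be told apart. Most chow cells lay in clusters 0, 1, 3 and 5, which held 1, 8, 30 and 2 NASH diet cells. Most NASH diet cells lay in clusters 10, 15 and 16, which held 2, 2 and 0 chow cells. Ratios are given as log2 of (NASH diet CPM + 5) over (chow CPM + 5). By that measure 5 of the 8 genes were higher by at least 1.5-fold and 0 were lower, where 5.46% of the 10614 genes with at least 50 UMIs were higher and 3.09% lower. The median of the 8 was 0.76, beside 0.09 for all genes tested. Among the 2096 genes with a mean of at least 50 CPM, a level that 7 of the 8 exceed, 12.1% were higher by 1.5-fold, 7.82% were lower and the median was 0.15, a restriction added after the values were seen. In cells with at least 10000 UMIs the median of the 8 was again 0.76 and 5 of 8 passed 1.5-fold, beside 5.25% of genes higher and 3.21% lower.

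Cpt1a encodes the liver form of the enzyme that commits long-chain acyl groups to oxidation and that malonyl-CoA inhibits. It lies at chr19:3322334-3385733 on the plus strand of the mouse genome build GRCm38. Its level was 172 CPM in chow (8076 UMIs, 168 to 176) and 302 CPM in the NASH diet (6862 UMIs, 295 to 310), a 1.76-fold difference (1.70 to 1.82). Cpt2, which completes the carnitine shuttle at the inner membrane, lies at chr4:107903981-107923610. It had 68.5 CPM in chow and 121 CPM in the NASH diet, 1.77-fold higher (1.68 to 1.87). The intervals of both libraries stood apart for both carnitine palmitoyltransferases, and their folds could not be distinguished by counting error.

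The 3 acyl-CoA dehydrogenases did not differ between diets to the same extent. Acadm, the medium-chain enzyme at chr3:153922357-153944632, had 200 CPM in chow (9381 UMIs) and 392 CPM in the NASH diet (8909 UMIs). Its 1.96-fold difference (1.91 to 2.02) was the largest among the 7 genes with more than 1000 UMIs in each library. Acadl, the long-chain enzyme at chr1:66830839-66863277, had 71.2 CPM and 129 CPM, 1.82-fold higher (1.73 to 1.91). Acadvl acts on the very long chains that arrive first and lies at chr11:70010183-70015411. It had 143 CPM in chow and 180 CPM in the NASH diet, a ratio of 1.26 (1.21 to 1.31) that lay below the intervals of Acadm and Acadl. Among all genes tested, Acadvl stood at the 83.0th percentile of the diet ratio and Acadm at the 98.3rd.

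Hadha and Hadhb encode the alpha and beta subunits of the trifunctional protein, which assemble into one complex. Hadha had 160 CPM in chow (7533 UMIs) and 238 CPM in the NASH diet (5407 UMIs), 1.48-fold higher (1.43 to 1.54). Hadhb had 123 CPM (5777 UMIs) and 207 CPM (4705 UMIs), 1.69-fold higher (1.62 to 1.75). The beta subunit therefore differed more than the alpha subunit, and the intervals of the folds did not overlap. Of the UMIs of the pair, Hadha took 56.6% on chow (55.8 to 57.4) and 53.5% on the NASH diet (52.5 to 54.4).

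The pair lies head to head on chromosome 5, with Hadha on the minus strand at chr5:30118304-30155162 and Hadhb on the plus strand at chr5:30155248-30184593. Only 85 bases separate the outermost annotated starts, and this stretch is shown because both genes are transcribed away from it. It is given on the plus strand at chr5:30155163-30155247, from the RefSeq promoter windows on GRCm38.p6. No letters are in capitals, because the motif AGGTCA, introduced with the regulators below, is not in this stretch.
between Hadha and Hadhb: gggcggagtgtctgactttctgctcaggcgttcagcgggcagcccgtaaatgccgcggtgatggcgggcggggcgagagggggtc

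Pdk4 encodes a kinase that switches off pyruvate dehydrogenase, so that pyruvate is spared while fat is burned. It lies at chr6:5483351-5496309 and was scarce in hepatocyte-like cells, with 47 chow UMIs (1.0007 CPM, 0.735 to 1.33) and 59 NASH diet UMIs (2.60 CPM, 1.98 to 3.35). The NASH diet level was 2.60-fold the chow level (1.74 to 3.89). On the scale with 5 CPM added the ratio was 0.34, because that addition outweighs a level of 1 to 3 CPM. At least 1 Pdk4 UMI was seen in 44 of 2095 chow cells and in 49 of 1144 NASH diet cells.

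**Figure D1:**
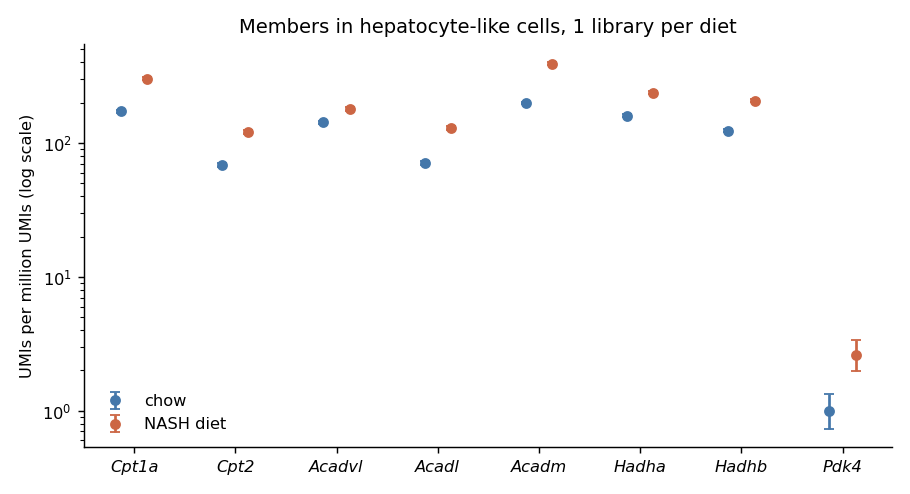
Level of each gene in hepatocyte-like cells in CPM (log axis), for the chow library (blue) and the NASH diet library (orange), with exact 95% Poisson intervals that cover counting error only. All 8 NASH diet points lie above their chow points, with the narrowest gap for Acadvl, 143 against 180 CPM, and Pdk4 far below the other 7 genes.

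The share of cells in which each gene was detected moved the same way at matched depth. Each cell was thinned to 5000 UMIs, which left 1845 chow and 1053 NASH diet cells and dropped 250 and 91. Acadm was detected in 63.3% of the chow cells (61.0 to 65.5) and 82.9% of the NASH diet cells (80.5 to 85.1), and Hadhb in 45.5% and 66.4%. Cpt1a was detected in 56.5% and 71.9%, and Acadvl in 48.9% and 57.8%. Without thinning these shares were 90.0% and 95.5% for Acadm, 81.6% and 91.7% for Hadhb, 79.9% and 86.6% for Cpt1a, and 86.0% and 89.7% for Acadvl. Most cell types oxidise fatty acids, so no class in these libraries serves as one that should lack the 7 genes.

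Hepatocytes differ along the axis from the portal vein to the central vein, and fatty acid oxidation is classically assigned to the portal side. Hepatocyte-like cells of each library were ranked by the share of pericentral UMIs among the UMIs of 10 pericentral and 13 periportal landmark genes and cut into 3 ranges of equal size. The ranges held 699, 698 and 698 chow cells and 382, 381 and 381 NASH diet cells. Glul, a pericentral landmark, had 17.98, 66.8 and 837 CPM from the portal to the central side in chow, and 9.24, 48.8 and 2577 CPM in the NASH diet. The lower edge runs through a dense part of the scale, since 1060 chow and 628 NASH diet cells lay within 5 percentage points of it. At the upper edge these were 84 and 38 cells. Cells under 10000 UMIs made up 9.30%, 21.6% and 23.8% of the chow ranges and 9.95%, 23.4% and 23.6% of the NASH diet ranges.

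With the 30% limit on mitochondrial UMIs, no member other than Pdk4 differed by 1.5-fold between the central and the portal side in either library. In chow 0 of 8 passed 1.5-fold, where 4.83% of genes were higher and 3.13% lower on the central side. In the NASH diet 1 of 8 passed, Pdk4, where 9.96% were higher and 2.77% lower. The median log2 ratio of central over portal side was 0.30 for the 8 genes in chow, beside 0.08 for all genes, and 0.10 in the NASH diet, beside 0.19. With the landmark genes weighted alike the NASH diet median was 0.20. With a mitochondrial limit of 10%, which leaves mostly shallow barcodes in chow, Cpt1a passed 1.5-fold towards the central side in both libraries and Hadha in the NASH diet. The shares of all genes at that limit were not computed.

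Cpt1a differed little across the ranges in chow, with 175, 171 and 170 CPM. In the NASH diet it had 313, 277 and 314 CPM, lowest in the middle. The log2 ratio of central over portal side was -0.04 in chow and 0.00 in the NASH diet, and both counting intervals held 0. At the mitochondrial limit of 10% these ratios were 1.38 and 0.76. Cluster 16, with a Cpt1a level of 35.0 CPM, made up 10.2%, 19.2% and 2.62% of the NASH diet ranges from portal to central side. NASH diet cells of cluster 3, at 40.5 CPM, made up 0.262%, 0.262% and 7.35%. Their part in the lower Cpt1a level of the middle range was not tested. Cpt2 had 60.4, 66.0 and 80.4 CPM in chow, a central-side excess of 0.39, and 119, 121 and 124 CPM in the NASH diet, an excess of 0.05. The counting interval of the unadjusted log2 ratio of Cpt2 was 0.29 to 0.53 in chow and -0.07 to 0.19 in the NASH diet.

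Acadm and Hadha were higher on the central side in both libraries. Acadm had 180, 197 and 226 CPM in chow and 343, 373 and 452 CPM in the NASH diet, with log2 ratios of 0.32 and 0.39. Hadha had 139, 164 and 181 CPM in chow and 209, 239 and 263 CPM in the NASH diet, with ratios of 0.36 and 0.32. At the mitochondrial limit of 10% the Acadm ratios were -0.049 and 0.079 and the Hadha ratios 0.21 and 0.60. Hadhb, its partner, differed less, with ratios of 0.11 in chow and 0.04 in the NASH diet. The share of Hadha in the pair was accordingly 54.0% on the portal and 58.4% on the central side in chow, and 50.4% and 55.3% in the NASH diet. At the mitochondrial limit of 10% the Hadhb ratios turned to -0.13 and -0.25.

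Acadvl was the one member whose ratios pointed in opposite directions in the 2 libraries with counting intervals that both lay clear of 0. In chow it had 130, 141 and 159 CPM from portal to central side, a log2 ratio of 0.29 with an unadjusted interval of 0.21 to 0.38. In the NASH diet it had 190, 191 and 162 CPM, a log2 ratio of -0.22 with an unadjusted interval of -0.33 to -0.12. Both libraries therefore had about the same Acadvl level on the central side, and the higher level in the NASH diet was found in the portal and middle ranges. With the landmark genes weighted alike the Acadvl ratios were 0.33 and -0.098. Cluster 16, with Acadvl at 340 CPM, made up 10.2%, 19.2% and 2.62% of the NASH diet ranges from portal to central side. Cluster 3 made up 6.15%, 20.5% and 17.8% in chow, at 266 CPM, and 0.262%, 0.262% and 7.35% in the NASH diet, at 412 CPM. Their part in the Acadvl ratios was not tested. Acadl had central-over-portal ratios of 0.31 in chow and 0.15 in the NASH diet, and the latter was 0.41 with the landmark genes weighted alike. At the mitochondrial limit of 10% the Acadl ratios were 0.17 and -0.042.

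Pdk4 was found mostly on the central side. In the NASH diet library 1 of its UMIs was read on the portal side and 52 on the central side, 0.134 against 6.19 CPM. The log2 ratio was 1.12 with 5 CPM added and 5.53 without, with a counting interval of 2.99 to 10.86. In chow 12 UMIs were read on the portal and 30 on the central side, 0.685 against 1.98 CPM. With 1 CPM added in place of 5 the chow log2 ratio was 0.82 in place of 0.30, past 1.5-fold.

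**Figure D2:**
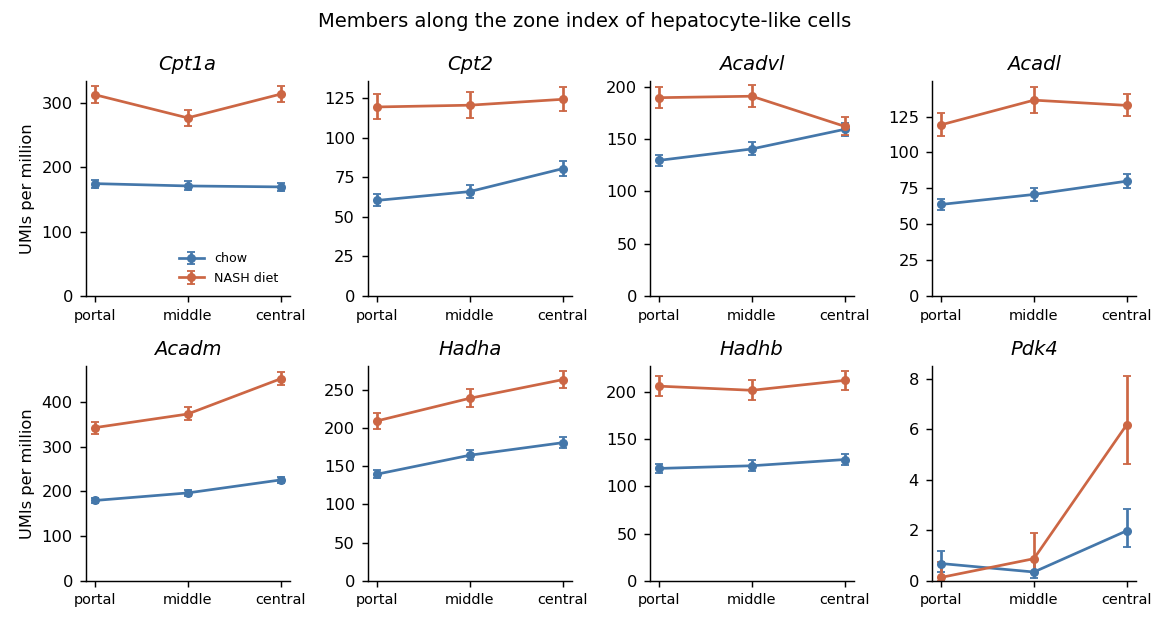
Level of each gene in CPM (linear axes from 0) in the portal, middle and central range of hepatocyte-like cells, chow in blue and NASH diet in orange, with exact 95% Poisson intervals for counting error. The 2 Acadvl lines meet on the central side at 159 and 162 CPM, and Pdk4 reaches 6.19 CPM on the central side of the NASH diet library.

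Within each range the diet comparison gave similar medians. The median log2 ratio of the 8 genes was 0.80 on the portal side, 0.69 in the middle and 0.69 on the central side, beside 0.05, 0.09 and 0.14 for all genes. On the portal side 5 of 8 passed 1.5-fold, where 5.82% of genes were higher and 4.56% lower. In the middle 5 of 8 passed, beside 6.27% higher and 4.11% lower, and on the central side 6 of 8, beside 8.32% and 3.34%. Acadm had ratios of 0.91, 0.91 and 0.99 from portal to central side and Cpt1a 0.82, 0.68 and 0.87. Cpt2 had 0.93, 0.82 and 0.60. Pdk4 had -0.15, 0.14 and 0.68, so it was lower in the NASH diet on the portal side and past 1.5-fold on the central side. Its portal value rests on 12 chow UMIs and 1 NASH diet UMI, with an unadjusted interval of -7.77 to 0.40. Acadvl had 0.53 and 0.43 in the portal and middle ranges and 0.02 on the central side, where the unadjusted interval was -0.07 to 0.12. In cells with at least 10000 UMIs the Acadvl ratios were 0.52, 0.43 and 0.03.

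The hepatocyte-like class was not uniform in its Cpt1a level. The 8 genes and the related lists had been left out of the genes used for clustering, yet levels in a cluster remain a description without a test. The 310 chow cells of cluster 3 had a median depth of 4793 UMIs and a median mitochondrial share of 2.23%. For the 122 NASH diet cells of cluster 16 these medians were 9045.5 UMIs and 3.69%. The deep clusters 0 and 1 of chow had medians of 20.7% and 17.8%, and clusters 10 and 15 of the NASH diet 24.7% and 22.9%.

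In cluster 3 Cpt1a stood at 17.1 CPM (41 UMIs, 12.3 to 23.2), whereas clusters 0 and 1 had 181 and 179 CPM. Cluster 16 had 35.0 CPM (56 UMIs, 26.5 to 45.5), whereas clusters 10 and 15 had 332 and 328 CPM. Cells with a Cpt1a UMI numbered 32 of 310 in cluster 3 and 45 of 122 in cluster 16. In both libraries the hepatocyte-like cells with little mitochondrially encoded RNA thus had a far lower Cpt1a level than the deep clusters.

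The acyl-CoA dehydrogenases went the other way in the same cells. Acadl had 198 CPM in cluster 3, against 69.4 and 61.9 CPM in clusters 0 and 1, and 374 CPM in cluster 16, against 97.1 and 118 CPM in clusters 10 and 15. Acadvl had 266 CPM in cluster 3, against 147 and 128 CPM, and 340 CPM in cluster 16, against 173 and 156 CPM. Acadm had 324 CPM in cluster 3, against 220 and 180 CPM, and 663 CPM in cluster 16, against 322 and 427 CPM.

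The trifunctional pair was also tilted in these clusters. Hadha took 40.9% of the pair's UMIs in cluster 3 (36.7 to 45.1) and 36.7% in cluster 16 (33.2 to 40.2), whereas the deep clusters had 55.8% and 59.4% in chow and 53.4% and 56.3% in the NASH diet. A low mitochondrial share moved with these differences in both libraries, and its part was not tested.

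Low depth was also found in clusters with a higher mitochondrial share, which had further traits of their own. The chow cells of cluster 5 had a median of 944.5 genes, beside 1445 for those of cluster 3. The leading genes of cluster 11 included the nuclear noncoding RNAs Malat1, Neat1 and Kcnq1ot1. The 114 chow cells of cluster 5 had medians of 5711 UMIs and 21.1%, with Cpt1a at 196 CPM (170 to 226) and a Hadha share of 52.2% (45.1 to 59.3). The 73 NASH diet cells of cluster 11 had medians of 4113 UMIs and 14.3%, with Cpt1a at 182 CPM (138 to 236) and a Hadha share of 59.2% (50.3 to 67.8). Cpt1a in cluster 5 was thus close to the deep chow clusters, and in cluster 11 it lay below the deep NASH diet clusters and above cluster 16. Acadl had 38.7 and 59.7 CPM in clusters 5 and 11, below the deep clusters of each library. Without clusters 3 and 16, a comparison added after the values were seen, the median diet ratio of the 8 genes was 0.68 and 5 of 8 passed 1.5-fold. The share and median of all genes in that subset were not computed. Without these clusters Acadl had 0.68 in place of 0.82 and Cpt1a 0.84 in place of 0.80.

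**Figure D3:**
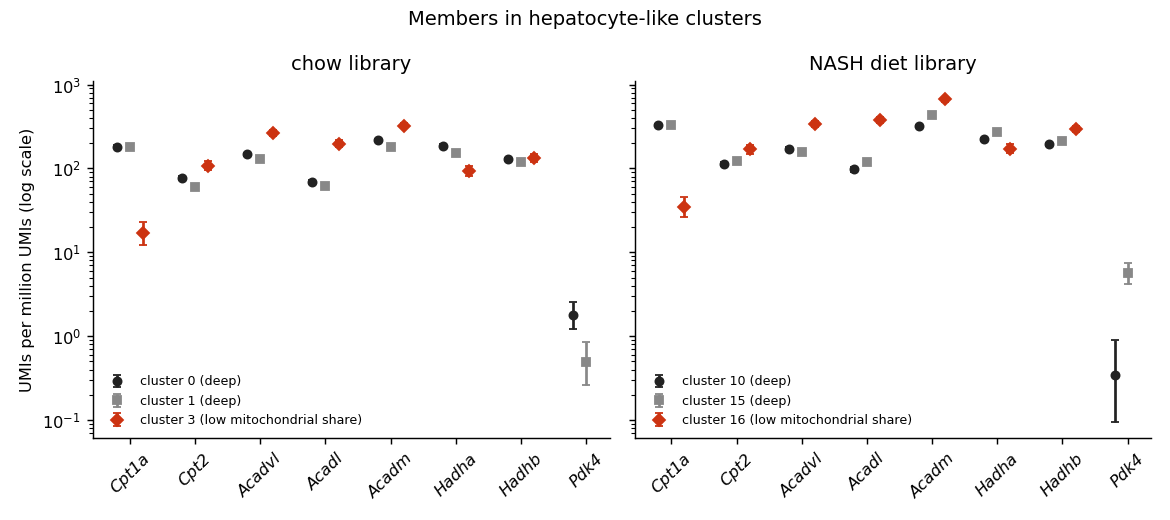
Level of each gene in CPM (log axis) in the 2 deep hepatocyte-like clusters of each library (black and grey) and in the cluster of low mitochondrial share (red), with exact 95% Poisson intervals; points with fewer than 3 UMIs are not drawn. Cpt1a drops to 17.1 and 35.0 CPM in the red clusters while Acadl, Acadvl and Acadm lie above the deep clusters.

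The same order appeared when barcodes with hepatocyte RNA, low-UMI droplets included, were split at 10000 UMIs and levels were taken per 1000000 UMIs that are not mitochondrially encoded. This split was chosen after the values were seen. The barcodes under 10000 UMIs include cells of clusters 3 and 16, so it is not a separate observation. Cpt1a had 65.8 under 10000 UMIs and 215 above in chow, and 124 and 396 in the NASH diet. Its log2 ratios of -1.64 and -1.63 were undercut by 0.178% and 0.465% of the genes tested. In chow 21.2% of genes were lower by 1.5-fold in the shallow barcodes and 12.9% higher, and in the NASH diet 13.2% and 18.2%.

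Of the other members, Acadl was higher in the shallow barcodes by 0.72 in chow and 1.09 in the NASH diet, and Acadvl by 0.47 and 0.59. Hadha was lower, at -0.65 and -0.29. Hadhb had -0.25 in chow and 0.23 in the NASH diet, and Cpt2 had 0.28 and 0.22. The ratio ran with transcript length across genes, as a description and not over replicates: Spearman's rho was -0.63 over 2260 chow genes and -0.44 over 2657 NASH diet genes. These are the tested genes of known length with a mean level of at least 50, and the class of long genes below is drawn from them. The longest coding transcripts in the annotation are 4317 bases for Cpt1a, 4017 for Hadha, 2372 for Cpt2, 2168 for Acadvl, 2048 for Hadhb, 2047 for Acadm and 1916 for Acadl. Genes of at least 4000 bases had a median ratio of -0.70 in chow and -0.25 in the NASH diet, and 1 gene in 10 of them lay below -1.29 and -1.14. The values of Cpt1a were lower than these. The part of transcript length in the Cpt1a difference was not tested.

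Cpt1a also varied with the mitochondrial share over all deposited barcodes, which include other cell types and low-UMI droplets. In chow it had 36.7 per 1000000 non-mitochondrial UMIs in the 1934 barcodes of at most 10% mitochondrial share, 219 in the 2392 of 10% to 30%, 206 in the 463 of 30% to 80% and 65.5 in the 2570 over 80%. In the NASH diet it had 51.3, 393, 286 and 125 in 261, 2109, 2389 and 1122 barcodes. Cpt1a was therefore low at both ends of the scale, lowest at the lower end. Acadl had 155 and 81.3 in the lower pair of classes in chow and 331 and 154 in the NASH diet, and in barcodes over 80% it had 68.5 in chow and 163 in the NASH diet. These levels are sums over UMIs, so deep barcodes weigh most in them. The median UMIs per barcode of the 4 classes were 682, 23026.5, 3985 and 5184 in chow and 6380, 3490, 1126 and 5846 in the NASH diet. Such medians do not give the depth of the barcodes that make up a level, and the part of depth was not tested.

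Genes that act beside the members were read from 5 lists. The lists were put together with earlier results of these data known, and their counts stand beside the 5.46% of all genes that were higher by 1.5-fold. Of 20 tested partners of mitochondrial beta-oxidation, 13 were higher by 1.5-fold and 0 lower, with a median log2 ratio of 0.76. Acsl1, which activates long-chain fatty acids, had 357 CPM in chow and 1131 CPM in the NASH diet (1.65). Acot2, a mitochondrial acyl-CoA thioesterase that can share reads with its paralog Acot1, had 2.11 and 16.7 CPM (1.61). The smallest ratios were those of Etfb (0.27), a subunit of the electron transfer flavoprotein that accepts electrons from the dehydrogenases, and Acsl5 (0.16). Cpt1b and Cpt1c, the muscle and brain forms of CPT1, had too few UMIs to be tested.

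Among 7 tested genes of ketogenesis and ketone handling, 5 were higher and 1 lower, with a median of 0.85. Acat1, which makes acetoacetyl-CoA, had 153 CPM in chow and 298 CPM in the NASH diet (0.94). Monocarboxylate carriers did not follow. Slc16a6, a ketone body exporter of hepatocytes, had 9.01 and 3.57 CPM (-0.71), and Slc16a1 had 38.2 and 24.4 CPM (-0.55).

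Control of pyruvate dehydrogenase had 3 of 12 tested genes higher and 0 lower, with a median of 0.40. Pdk2, a kinase of the same family as Pdk4, had 22.3 CPM in chow and 49.4 CPM in the NASH diet (0.997). Mpc1, a subunit of the mitochondrial pyruvate carrier, had 210 and 406 CPM (0.94). The enzyme's own subunits Pdhb (0.23) and Dlat (0.15) had the smallest ratios among the genes with at least 100 UMIs.

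The regulators of oxidation had 2 of 19 genes higher and 1 lower, with a median of 0.24. Ppara had 32.5 CPM in chow and 85.3 CPM in the NASH diet (1.27), and Esrra, an orphan nuclear receptor of mitochondrial genes, 8.09 and 22.1 CPM (1.05). Lpin1, a coactivator and phosphatidate phosphatase, had 102 and 44.98 CPM (-1.10). Acacb, which makes the malonyl-CoA that inhibits CPT1, had 19.3 and 11.4 CPM (-0.57).

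PPARA targets outside mitochondrial beta-oxidation had 11 of 15 genes higher and 1 lower, with a median of 1.55, above the 0.76 of the members. Cyp4a10 and Cyp4a14, which hydroxylate fatty acids at the omega end and can share reads with each other, had log2 ratios of 4.35 and 3.64. Fgf21, a hormone induced by fasting, had 7.39 and 5.64 CPM (-0.22), and Ucp2, a carrier of the inner mitochondrial membrane, 13.4 and 5.20 CPM (-0.85).

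**Figure D4:**
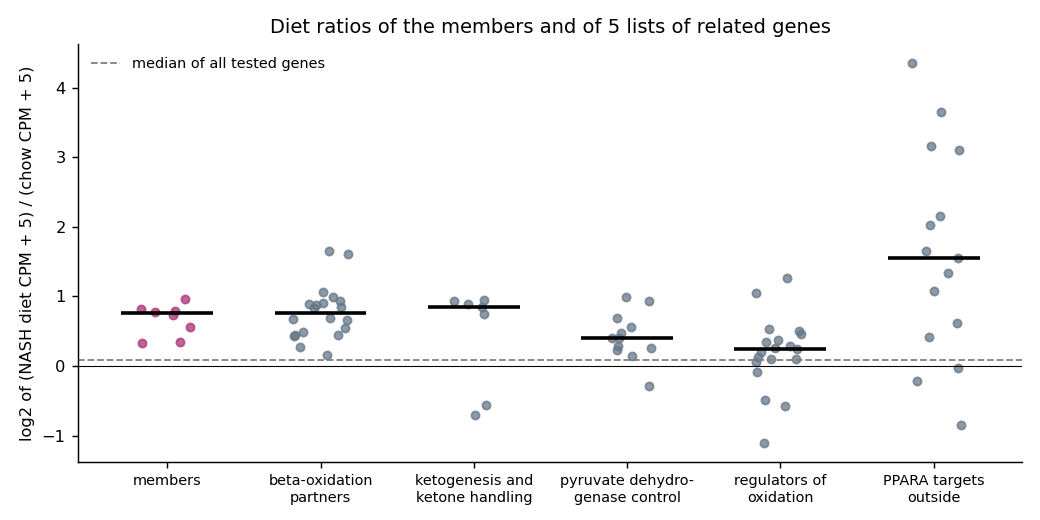
Log2 ratio of NASH diet over chow level, with 5 CPM added to each, for the 8 members and the tested genes of 5 related lists in hepatocyte-like cells; each point is a gene, thick bars are list medians and the dashed line is the median of all tested genes (0.09). The members' median of 0.76 equals that of the beta-oxidation partners to 2 decimals and lies below the 1.55 of the PPARA targets.

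PPARA binds DNA with a partner receptor at repeats of AGGTCA, so the promoter windows of the members were searched for that motif. Windows reach from 250 bases before to 50 after the RefSeq start and were found for all 8 genes. AGGTCA or its reverse complement occurs in 3 of the 8 windows, those of Acadm, Acadvl and Cpt1a, and in 16.3% of all 32851 windows. The windows of Hadha and Hadhb share 228 of their 300 bases, so the 8 windows are not all separate sequences. The repeat AGGTCANAGGTCA occurs in 0 of the 8 and in 0.0396% of all windows, either strand, and each such repeat also holds the shorter motif. A match describes the letters and not a bound site. The part of the 3 windows that lies before the first annotated protein-coding start is shown, each on its gene's strand on GRCm38.p6, with AGGTCA or TGACCT in capitals: Acadm at chr3:153944633-153944893 (minus strand), Acadvl at chr11:70015409-70015678 (minus strand) and Cpt1a at chr19:3323051-3323284 (plus strand), which lies within the annotated span of the gene because that span begins further upstream.
Acadm: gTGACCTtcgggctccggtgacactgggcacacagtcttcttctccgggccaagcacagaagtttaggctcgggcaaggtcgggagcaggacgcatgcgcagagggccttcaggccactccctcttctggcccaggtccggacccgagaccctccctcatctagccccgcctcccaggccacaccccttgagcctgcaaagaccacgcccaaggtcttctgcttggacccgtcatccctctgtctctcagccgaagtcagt
Acadvl: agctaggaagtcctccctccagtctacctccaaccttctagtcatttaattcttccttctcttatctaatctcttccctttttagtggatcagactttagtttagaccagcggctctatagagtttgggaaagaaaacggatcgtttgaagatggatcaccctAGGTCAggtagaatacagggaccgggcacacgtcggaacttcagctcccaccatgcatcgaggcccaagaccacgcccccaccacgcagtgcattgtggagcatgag
Cpt1a: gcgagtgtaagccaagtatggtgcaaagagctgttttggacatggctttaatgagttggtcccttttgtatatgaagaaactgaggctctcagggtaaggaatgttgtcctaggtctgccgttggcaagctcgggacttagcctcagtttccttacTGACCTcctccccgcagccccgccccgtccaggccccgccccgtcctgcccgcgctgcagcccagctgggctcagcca
With 5 CPM added, the 3 genes with the motif had diet ratios of 0.96, 0.33 and 0.80, which include the highest and the lowest among the 8. Without that addition the highest was Pdk4, at 2.60-fold, which lacks the motif. A link between motif and diet ratio was not tested.

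Outside hepatocyte-like cells the members were read in endothelial-like (66 chow and 53 NASH diet cells), mesenchymal-like (18 and 19) and mononuclear phagocyte-like cells (90 and 96). Free hepatocyte RNA in these droplets was estimated from 10 genes that only hepatocytes express, scaled to the low-UMI droplets. Of 48 combinations of gene, class and library, 40 had a count whose lower bound exceeded that estimate. Among phagocyte-like cells these were 8 of 8 genes in chow and 4 of 8 in the NASH diet. With hepatocyte-like cells in place of the low-UMI droplets as reference, 46 of 48 passed. Among phagocyte-like cells these were 8 of 8 in chow and 6 of 8 in the NASH diet. The share of all genes that would pass was not computed, so the count shows nothing particular to the members. The estimate was used without its own counting error. Cpt1a had 79.6 CPM in chow and 97.0 CPM in NASH diet endothelial-like cells, and 54.0 and 51.9 CPM in phagocyte-like cells, below the hepatocyte-like levels in each library. Acadl had 106 CPM (70.5 to 153) in chow endothelial-like cells, and the interval reached down to the 71.2 CPM of hepatocyte-like cells. Hadhb had 102 CPM (67.4 to 149) there, against 123 CPM. Hadha took 34.1% (20.1 to 50.6) and 39.1% (27.6 to 51.6) of the pair's UMIs in endothelial-like cells and 35.1% (24.4 to 47.1) and 39.0% (26.5 to 52.6) in phagocyte-like cells.

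For Pdk4 the order of the classes was different. Endothelial-like cells had 16 Pdk4 UMIs in chow (60.6 CPM, 34.7 to 98.5) and 8 in the NASH diet (24.3 CPM, 10.5 to 47.8). Mesenchymal-like cells had 8 UMIs (49.7 CPM, 21.5 to 98.0) and 3 UMIs (10.8 CPM, 2.22 to 31.5). All 4 levels exceeded the 1.0007 and 2.60 CPM of hepatocyte-like cells, although the last interval reached down to the hepatocyte-like level of 2.60. The free-RNA estimate for Pdk4 was 0.0258 UMIs in the chow endothelial-like cells.

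By cells, 12 of 66 chow endothelial-like cells (median 3773.5 UMIs) and 6 of 18 mesenchymal-like cells (9205.5 UMIs) had a Pdk4 UMI. Phagocyte-like cells of similar depth (3994.5 UMIs) had it in 3 of 90 and low-UMI droplets (645 UMIs) in 1 of 1745. In the NASH diet 6 of 53 endothelial-like and 3 of 19 mesenchymal-like cells had a Pdk4 UMI. The chow endothelial-like cell with the most Pdk4 UMIs held 12.5% of them. The NASH diet endothelial-like cell with the most held 37.5% of 8. Pdk4 was 2.50-fold higher in chow than in NASH diet endothelial-like cells (1.01 to 6.75) and 4.62-fold higher in mesenchymal-like cells (1.11 to 27.02). These intervals, 2 of 24 computed over genes and classes without adjustment, cover counting error only, and their lower ends lay near 1.

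**Figure D5:**
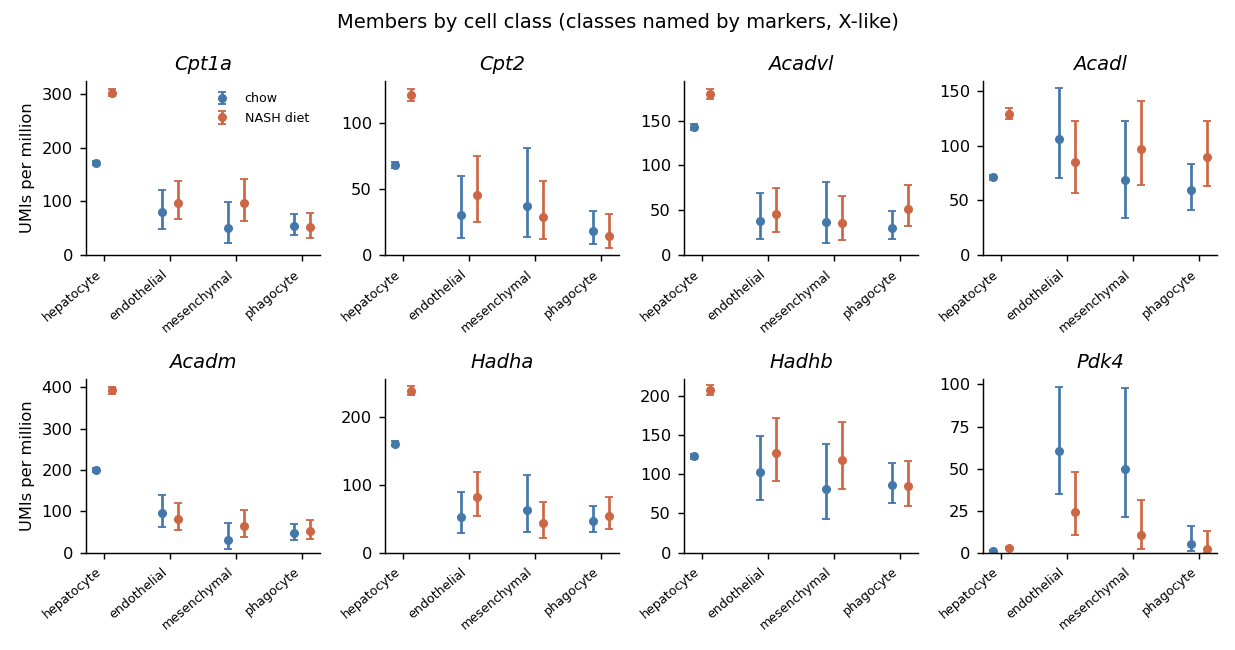
Level of each gene in CPM (linear axes from 0) in hepatocyte-like, endothelial-like, mesenchymal-like and mononuclear phagocyte-like cells, chow in blue and NASH diet in orange, with exact 95% Poisson intervals for counting error. Pdk4 is higher in endothelial-like and mesenchymal-like than in hepatocyte-like cells, 60.6 and 49.7 CPM against 1.0007 CPM in chow.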

How the data were processed

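The deposited values are raw UMI counts for each gene in each barcode, without normalization, made with Cell Ranger (version 3.0.2 per the file headers, 3.1.0 per the submitters' processing notes, which also name Seurat and the build mm10). The labels name the 10x 3' kit version 3. A deposited merged matrix held 86.4% of the chow UMIs and 100.0% of the NASH diet UMIs and served as an alternative. Columns left unmatched to a sample numbered 0.

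Barcodes with at least 200 genes, 500 UMIs and at most 30% mitochondrial UMIs were kept: 4326 of 7359 for chow and 2369 of 5881 for the NASH diet. Scrublet in scanpy 1.11.5 called 0 doublets by its own threshold, which therefore did not work. The highest scores were removed at 0.8% per 1000 barcodes, which left 4041 and 2305 barcodes. Both libraries were clustered together on 2000 variable genes without the members and list genes, with 30 principal components, 15 neighbours and Leiden resolution 1.0 (igraph 0.11.9, scikit-learn 1.9.0, seed 0).

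Clusters were named from marker lists as X-like. Hepatocyte-like clusters were named against the pooled non-parenchymal clusters. A cluster could not take another class's name if its hepatocyte genes exceeded 0.5 of their share over all cells, a threshold set after seeing the clusters. Names may differ from the study's. Low-UMI clusters stayed apart from the hepatocyte-like class. UMIs were summed per class, zone range and library and scaled per 1000000 UMIs (CPM). Log2 ratios add 5 CPM, and a gene counts as tested with at least 50 UMIs in the cells compared. "Higher" and "lower" in counts mean at least 1.5-fold. With 1 library per diet there is no test, p-value or standard error. Intervals are exact Poisson or Clopper-Pearson (scipy 1.17.1) at 95%. The ratio and interval step was tested on simulated Poisson counts, which checks the calculation only. The simulation held no variation between animals, libraries or clusters. Gene positions and transcript lengths come from GENCODE M21 on GRCm38, the build the notes call mm10.

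The members, the gene lists and the depth and cluster comparisons were chosen with earlier results of these data known. The rule for named genes took all 8 members and, from each list, the 2 highest and 2 lowest log2 ratios among genes with at least 100 UMIs, and some genes it would name are not reported here. Zone ranges rank cells within a library. Settings varied were the denominator, scale, filters, doublet removal, resolution, depth, pseudocount, zone index and free-RNA reference.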

Additional observations from a re-analysis of the deposited data

Results flagged for a closer look

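The central-over-portal log2 ratio of Acadvl, the very-long-chain acyl-CoA dehydrogenase, was 0.29 on chow and -0.22 on the NASH diet, so the gene was higher on the central side in one and on the portal side in the other. Neither counting interval held 0. The difference between the diets was not tested, because each had 1 library. The direction in each library was kept in cells with at least 10000 UMIs, at 0.27 and -0.22. With the landmark genes weighted alike the ratios were 0.33 and -0.098. Clusters 3 and 16 were spread unevenly over the ranges, and their part in these ratios was not tested.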

How the results depend on the processing

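The median diet ratio of the 8 genes (0.76) became 0.59 with the median of ratios as scale, which moves the median of all genes from 0.09 to -0.01, and 0.63 with no mitochondrial limit. In the latter the classes hold unlike cells, 2394 from chow (median 21331 UMIs) and 4204 from the NASH diet (1673). At a mitochondrial limit of 10% it was 1750 chow cells (median 670 UMIs) against 225 NASH diet cells (6003). At that limit the chow zone median was 0.15 in place of 0.30, and the chow zone ratios of Acadm, Hadhb and Pdk4 turned to -0.049, -0.13 and -0.15. In the NASH diet the zone ratios of Acadl and Hadhb turned to -0.042 and -0.25. The Cpt1a zone ratio was then 1.38 in place of -0.04 in chow and 0.76 in place of 0.00 in the NASH diet, and that of Hadha in the NASH diet was 0.60 in place of 0.32. With landmarks weighted alike the NASH diet zone median was 0.20 in place of 0.10, Acadl had 0.41 in place of 0.15 and Acadvl -0.098 in place of -0.22. The members read above free RNA in other cells numbered 13 of 40 combinations with no mitochondrial limit, against 40 of 48, and the cause was not tested. With hepatocyte-like cells as the free-RNA reference they numbered 46 of 48. None of these counts has a share over all genes beside it. With non-mitochondrial UMIs as denominator 4 regulators of oxidation were higher in place of 2. The median difference in share of cells with a UMI was 15.5 percentage points at 5000 UMIs and 7.14 without thinning, where depth differs. Of 302 values under another setting, 254 stayed within counting bounds of the reported value or, for counts, within 1.5 times it, 46 moved and 2 reversed. These bounds pair opposite ends of the 2 intervals compared and are wider than the exact interval of a ratio. A median was judged by the median of its members' bounds. A zone ratio that changed sign was counted as moved if these wider bounds held 0. Hadhb in chow and Acadl in the NASH diet, at the mitochondrial limit of 10%, were among these. Their exact unadjusted intervals under the reported setting, 0.02 to 0.20 and 0.03 to 0.28, lay above 0. Across all settings run, most without a share over all genes, the count of members higher by 1.5-fold lay between 4 and 6. Hadha at 1.48-fold was closest to that threshold. No paired analysis was possible because each diet has 1 library and the results come from no test. Pdk4 and the classes other than hepatocytes are limited by UMI counts under 100.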

Other observations

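Genes whose profile over the 6 groups of diet and zone range lay closest to a member's were ranked by the root mean square difference of centred log2 levels, among 7029 genes with at least 500 UMIs. Among the closest to Cpt1a were Gpt2 (0.04) and Tbc1d16 (0.05). Closest to Acadm were Pnpla2 (0.04), the adipose triglyceride lipase, Dhtkd1 (0.04) and Fam126b (0.05). Acadl had Acaa2, the mitochondrial thiolase, at rank 2 of its nearest 3 (0.05), and Hadha had Acads, the short-chain dehydrogenase, at rank 3 (0.03). Acaa2 and Acads were the only neighbours of any member that came from the members and lists. Not all neighbours are named here, and those named with a function were not the majority. Hadhb had Tomm5 (0.04), Plin5 (0.04), a lipid droplet protein that contacts mitochondria, and Gas1 (0.05). Nearest to Cpt2 was Cisd1 (0.03) and nearest to Acadvl was Gm48633 (0.03). Pdk4 itself had fewer than 500 UMIs, and its nearest gene was Gpd2 (0.07).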
